A study of Mus musculus with 12 samples.

Results

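Mitochondrial ribosomal proteins build the ribosome inside mitochondria, which translates the few messages encoded by the mitochondrial genome, all of them for subunits of the oxidative phosphorylation complexes. The proteins themselves are encoded in the nucleus, made in the cytosol and imported, and are named for the large subunit (Mrpl) or the small subunit (Mrps). Skeletal muscle relies heavily on oxidative phosphorylation, and its resident stem cells, the satellite cells, hold few mitochondria while quiescent and more once they proliferate. The members were all probe sets of the array that the platform annotation assigns to 1 gene only, with a symbol that begins with Mrpl or Mrps and a digit. They stood for 74 of the array's 12393 genes, 47 of them Mrpl and 27 Mrps, and made up 127 of its 20380 probe sets with 1 gene (88 Mrpl and 39 Mrps). Another 3 Mrp probe sets list several genes and were left out.

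Expression was measured on Affymetrix Mouse 430A arrays in cells from hind limb muscle of C57BL/6J mice aged 8 to 12 weeks, 4 arrays per group, with no genetic change or injury named for any group. Activated satellite cells (ASC) bound SM/C-2.6, an antibody to mouse satellite cells, and were grown for 4 days in DMEM with 20% FCS and 2.5 ng/ml bFGF, after which more than 99% carried MyoD, a myogenic transcription factor. Quiescent satellite cells (QSC) bound the same antibody and were taken straight from the sort, with more than 97% carrying Pax7, the transcription factor that defines satellite cells. Non-myogenic cells (NMC) were negative for SM/C-2.6 and for CD45, a marker of leukocytes, were also taken straight from the sort, and were less than 1% myogenic. Only ASC were cultured, so activation, proliferation, culture medium and time since sorting cannot be told apart. Whether each array stands for a separate mouse is not stated in the labels, so p-values cover only the spread among these arrays, and that spread may be technical.

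The arrays were brought to 1 trimmed mean, since the deposited trimmed means ran between 323 and 502 on the 5 arrays labelled with a small-sample kit (replicates 1 and 2 of ASC and QSC, replicate 1 of NMC) and between 160 and 236 on the 7 arrays labelled with a two-cycle kit. Signals below are scaled signals, in arbitrary units that can be compared between arrays for 1 probe set but not between probe sets. The summed signal of 7 myogenic markers was 7917 to 11232 on ASC, 7312 to 9639 on QSC and 255 to 491 on NMC arrays. Of the markers of other cells, the sum of 8 fibroblast genes was 1360 to 1760 on ASC, 11958 to 21670 on QSC and 41259 to 75028 on NMC arrays, and that of 10 endothelial genes was 219 to 223 on ASC, 1830 to 2911 on QSC and 11969 to 13583 on NMC arrays. For 5 tenocyte genes it was 54.7 to 129 on ASC, 500 to 1179 on QSC and 17961 to 34142 on NMC arrays. For 8 myofibre genes it was 683 to 9616 on ASC, 2148 to 7313 on QSC and 8945 to 27150 on NMC arrays. The ratio of 3′ to 5′ signal of Gapdh, a measure of RNA and labelling quality, was 1.40 to 2.14 on ASC, 3.06 to 5.36 on QSC and 3.27 to 5.23 on NMC arrays. In ASC against QSC, 11 of 12 fibroblast and 14 of 14 endothelial probe sets were lower, and in QSC against NMC all of both lists were. Of all probe sets tested, 30.7% were called higher and 37.6% lower in ASC than in QSC. In QSC, 27.4% were called higher and 24% lower than in NMC. Of 8 myogenic probe sets, 2 were higher and 5 lower in ASC than in QSC, with a median log2 change of -1.62. All 8 were higher in QSC than in NMC. The summed signal of 15 cell cycle genes was 22479 to 34287 on ASC, 4731 to 7951 on QSC and 3309 to 3824 on NMC arrays. Of their 27 tested probe sets, 27 were higher in ASC than in QSC, with a median log2 change of 2.39. These values move with the groups, although the myofibre sums of ASC and QSC arrays overlap. The part of all these values in the differences below was not tested. In sorted cells in bulk, fewer cells of a type and less RNA per cell cannot be told apart.

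The letters upstream of the genes give a first view of what the family shares. Windows of 250 bases before and 50 bases after the start of the gene (RefSeq, GRCm38.p6) were held for 65 of the 74 genes. Both strands were searched for CCGGAAG, the core bound by ETS factors such as the GA-binding protein, for GCGCATGCG, bound by nuclear respiratory factor 1 (NRF1), for AAGATGGC, bound by YY1, and for CACGTG, the E-box bound by Myc and its relatives. The ETS core was present in 24 of the 65 genes (36.9%), against 12.9% of all 17492 coding genes with such a window. The NRF1 letters were present in 7 genes (10.8%), against 2.61% of all coding genes, and the YY1 letters in 11 genes (16.9%), against 3.57%. The E-box was present in 5 genes (7.69%), close to the 8.91% of all coding genes. The ETS and YY1 letters can overlap, since the first ends and the second begins with AAG. Of the 65 genes, 38 (58.5%) held at least 1 of the 4, against 24.5% of all coding genes. The windows of the members had a median GC content of 58.7%, against 56.3% for all coding windows. A match is a description of the letters and not of a bound site.

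The windows of 5 genes are printed here, chosen after the values had been seen, to show the ETS core close to the start (Mrps22), far upstream (Mrpl18), with the NRF1 letters (Mrps18b) and with the YY1 letters (Mrps12), and a window with none of the 4 (Mrpl24). Motif letters are in capitals.
Mrps22, chr9:98601630-98601929, minus strand, has the ETS core beginning 11 bases before the start.
Mrps22: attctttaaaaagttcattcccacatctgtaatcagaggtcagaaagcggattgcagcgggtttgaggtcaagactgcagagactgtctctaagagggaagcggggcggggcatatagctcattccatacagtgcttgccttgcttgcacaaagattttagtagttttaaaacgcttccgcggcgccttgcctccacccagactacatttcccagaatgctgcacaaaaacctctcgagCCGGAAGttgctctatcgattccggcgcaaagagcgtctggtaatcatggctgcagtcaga
Mrpl18, chr17:12916042-12916341, minus strand, has it beginning 240 bases before the start.
Mrpl18: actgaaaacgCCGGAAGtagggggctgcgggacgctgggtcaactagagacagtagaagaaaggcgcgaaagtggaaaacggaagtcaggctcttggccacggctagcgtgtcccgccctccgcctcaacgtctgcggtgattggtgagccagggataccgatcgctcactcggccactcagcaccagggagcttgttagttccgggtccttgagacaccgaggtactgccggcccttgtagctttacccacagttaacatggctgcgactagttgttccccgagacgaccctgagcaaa
Mrps18b, chr17:35916391-35916690, minus strand, has the NRF1 letters beginning 224 bases before the start and the ETS core 43 bases after it, both as the reverse complement.
Mrps18b: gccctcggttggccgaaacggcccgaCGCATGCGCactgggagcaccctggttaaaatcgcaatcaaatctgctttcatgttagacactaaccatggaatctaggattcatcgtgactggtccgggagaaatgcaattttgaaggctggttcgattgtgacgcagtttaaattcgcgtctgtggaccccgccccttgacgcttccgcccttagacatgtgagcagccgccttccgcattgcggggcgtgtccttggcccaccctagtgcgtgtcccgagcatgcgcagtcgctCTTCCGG
Mrps12, chr7:28741772-28742071, minus strand, has the YY1 letters beginning 199 bases before the start, as the reverse complement, and the ETS core 1 base after the start.
Mrps12: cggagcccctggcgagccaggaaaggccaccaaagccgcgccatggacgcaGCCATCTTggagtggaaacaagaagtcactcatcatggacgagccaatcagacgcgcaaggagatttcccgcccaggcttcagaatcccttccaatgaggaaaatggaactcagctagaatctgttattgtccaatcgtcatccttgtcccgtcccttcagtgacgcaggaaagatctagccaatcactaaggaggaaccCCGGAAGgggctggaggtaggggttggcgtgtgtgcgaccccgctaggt
Mrpl24, chr3:87919294-87919593, plus strand, has none of the 4 motifs.
Mrpl24: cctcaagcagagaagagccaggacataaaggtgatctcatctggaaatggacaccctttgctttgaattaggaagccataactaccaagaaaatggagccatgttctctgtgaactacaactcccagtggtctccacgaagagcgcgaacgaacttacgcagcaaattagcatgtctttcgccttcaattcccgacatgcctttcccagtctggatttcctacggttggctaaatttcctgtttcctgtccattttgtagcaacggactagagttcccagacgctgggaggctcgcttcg

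Most of the family was higher in ASC than in QSC. Of the 127 member probe sets, 107 had a mean signal high enough to be tested (at least 0.2 of the trimmed mean), and every one of the 74 genes kept at least 1 tested probe set. The signal was higher in ASC than in QSC for 90 of the 107 (84.1%) and lower for 3, by limma with the labelling kit as a term and Benjamini-Hochberg adjusted p under 0.05. Over all 12072 probe sets tested, 30.7% were called higher and 37.6% lower. The median log2 change of the members was 1.11, a 2.16-fold higher signal, with an interquartile range of 0.73 to 1.51, while the median of all probe sets was -0.12. The 4 ASC arrays all lay above the 4 QSC arrays for 85 member probe sets and all below for 2, against 23.7% and 27.6% of all probe sets. A difference of at least 2-fold with the call was found for 65 probe sets, and of at least 4-fold for 10. The shares of all probe sets with changes of these sizes were not counted. By gene, 61 had every tested probe set higher and 6 had some higher and none lower. With the brightest probe set of each gene alone, 67 of 74 genes were higher and 1 lower, against 31.8% and 38.2% of all genes taken that way.

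The rise was present under both labelling kits. On the small-sample arrays alone 76 member probe sets were called higher and 2 lower, with a median log2 change of 1.06, against 22.4% higher and 26.3% lower of all probe sets. On the two-cycle arrays alone 88 were called higher and 3 lower, with a median of 1.14, against 28.2% and 37% of all probe sets. The interaction of kit and group was called for 1 of the 107 member probe sets (Mrpl22), against 4.66% of all probe sets, and 22 had an unadjusted p under 0.05 for it. Relative to the QSC mean of each probe set, the member median was 1.03, 1.02, 1.17 and 1.17 on the 4 ASC arrays, 0.03, -0.02, -0.13 and 0.10 on the QSC arrays and -0.14, 0.00, 0.10 and -0.08 on the NMC arrays. The ASC arrays stood apart as a block, and the QSC and NMC arrays overlapped. Without the 2 small-sample ASC arrays, 87 member probe sets were called higher and 3 lower, against 26.7% and 34.7% of all probe sets. Of the tested members, 3 would have fallen under the signal minimum on the QSC and NMC arrays alone and were tested because of their ASC signal: 1 probe set each of Mrpl19 (1450405_at), Mrps23 and Mrps5.

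**Figure D1:**
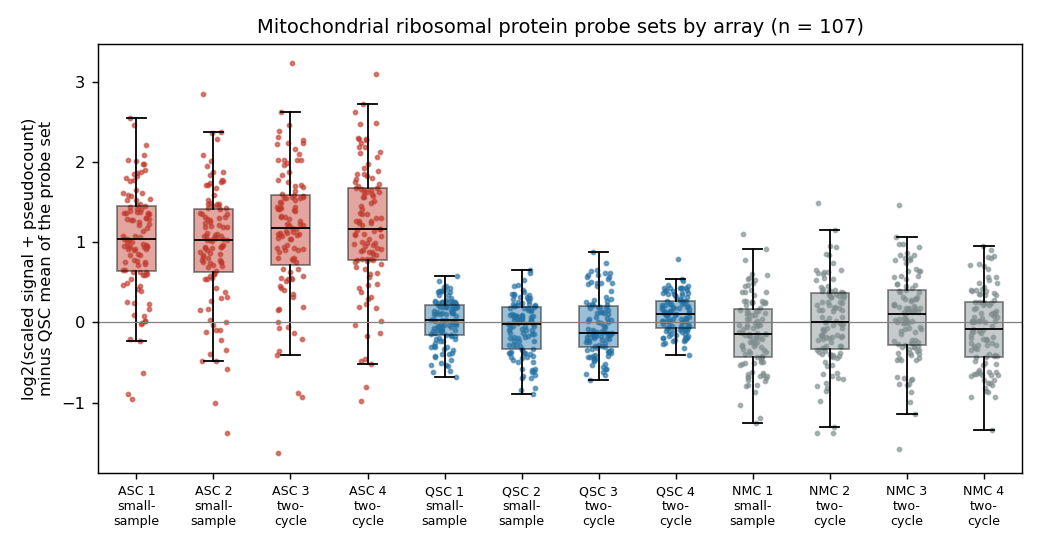
Each point is 1 of the 107 tested probe sets on 1 array, as log2(scaled signal + pseudocount) minus the mean of the 4 QSC arrays for that probe set, with boxes for quartiles and the kit under each array. The 4 ASC medians lie between 1.02 and 1.17, and the 8 QSC and NMC medians between -0.14 and 0.10.

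The 5 genes with the highest called log2 change in activation belong to both subunits. Mrpl18, a large subunit protein whose bacterial counterpart binds 5S rRNA, had scaled signals of 737, 689, 1268 and 1153 on ASC arrays, against 79.6, 153, 140 and 129 on QSC arrays. All 4 ASC arrays were far above all QSC arrays, and the log2 change was 2.79 ± 0.21 (SE, limma adjusted p = 7.18e-08). Mrps22, a small subunit protein with no bacterial counterpart that is mutated in human mitochondrial disease, had 762, 807, 822 and 918 on ASC arrays, against 147, 184, 130 and 160 on QSC arrays. Both groups were tight, and the log2 change was 2.32 ± 0.14 (SE). Mrpl47, which lies by the exit tunnel for the new chain, had 725, 652, 935 and 1189 on ASC arrays, against 143, 176, 173 and 179 on QSC arrays, a log2 change of 2.25 ± 0.16 (SE).

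Mrpl12, a protein of the stalk that recruits translation factors and, in human cells, also a partner of the mitochondrial RNA polymerase, had 1206, 1088, 2005 and 2010 on ASC arrays, against 234, 308, 327 and 408 on QSC arrays. Its log2 change was 2.22 ± 0.15 (SE), and the 2 small-sample ASC arrays were the lower pair. Mrpl19, which lies at the interface of the subunits, had 240, 298, 190 and 198 at its probe set 1450405_at on ASC arrays, against 36.0, 21.1, 33.9 and 25.8 on QSC arrays, a log2 change of 2.48 ± 0.17 (SE). This probe set averaged 29.2 on QSC and 33.1 on NMC arrays, under the signal minimum of 47.028, and was tested only through its ASC signal, so its change is given as a description. At the brighter probe set 1421914_s_at the change was 1.84 ± 0.14 (SE), which ranked 11 among the genes when each was taken at its brightest probe set.

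Members named for their place in the ribosome, whatever their values, were also higher in ASC. Mrpl11, at the base of the factor-recruiting stalk, had 870, 826, 1030 and 1042 at 1417918_at on ASC arrays, against 436, 308, 267 and 332 on QSC arrays. Its 3 tested probe sets rose by log2 changes of 1.46, 1.59 and 0.82. Mrps12, the decoding centre protein whose bacterial counterpart is the site of streptomycin resistance, had 583, 480, 479 and 542 on ASC arrays, against 299, 237, 233 and 234 on QSC arrays, a log2 change of 1.02 ± 0.15 (SE, limma adjusted p = 3.74e-05). Mrpl3, near the peptidyl transferase centre, had 1397, 1331, 2124 and 2139 at 1422464_at on ASC arrays, against 393, 350, 810 and 723 on QSC arrays. Within ASC and within QSC the small-sample arrays of Mrpl3 were the lower pair, and with the kit as a term the log2 change was 1.65 ± 0.15 (SE).

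Large subunit proteins particular to mitochondria rose as well. Mrpl45, which holds the ribosome at the inner membrane, had 511, 537, 459 and 583 on ASC arrays, against 169, 214, 177 and 173 on QSC arrays, a log2 change of 1.44 ± 0.15 (SE). Mrpl41, also near the tunnel exit, had 993, 1016, 1012 and 1173 at 1428588_a_at on ASC arrays, against 348, 277, 434 and 447 on QSC arrays, a log2 change of 1.46 ± 0.14 (SE). Mrpl44, which has an RNase III-like fold, had 746, 679, 515 and 582 at 1452144_a_at on ASC arrays, against 273, 198, 299 and 296 on QSC arrays, and its 3 probe sets rose by log2 changes of 1.20, 1.43 and 2.09. No ASC array of these 3 genes at these probe sets overlapped a QSC array.

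The 3 relatives of bacterial S18 each hold a place of their own in the mammalian ribosome, and all rose. Mrps18b had 1344, 1420, 1636 and 1600 on ASC arrays, against 335, 467, 321 and 318 on QSC arrays, a log2 change of 2.03 ± 0.16 (SE). Mrps18a, which despite its name lies in the large subunit, had 481, 636, 576 and 557 on ASC arrays, against 211, 215, 261 and 281 on QSC arrays, a log2 change of 1.17 ± 0.14 (SE). Mrps18c had 583, 554, 849 and 1008 on ASC arrays, against 258, 263, 246 and 357 on QSC arrays, a log2 change of 1.34 ± 0.16 (SE). The changes of the 3 paralogues were not tested against one another.

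Among other small subunit names, Mrps6 had 575, 882, 821 and 774 on ASC arrays, against 218, 204, 101 and 136 on QSC arrays, a log2 change of 2.15 ± 0.20 (SE). Mrps16, mutated in a human respiratory chain disorder, had 581, 413, 617 and 623 on ASC arrays, against 262, 197, 196 and 226 on QSC arrays, a log2 change of 1.28 ± 0.17 (SE). Mrps30, now placed in the large subunit, had 518, 525, 601 and 592 on ASC arrays, against 271, 207, 224 and 257 on QSC arrays, a log2 change of 1.18 ± 0.13 (SE). The groups did not overlap for any of these 3 genes.

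**Figure D2:**
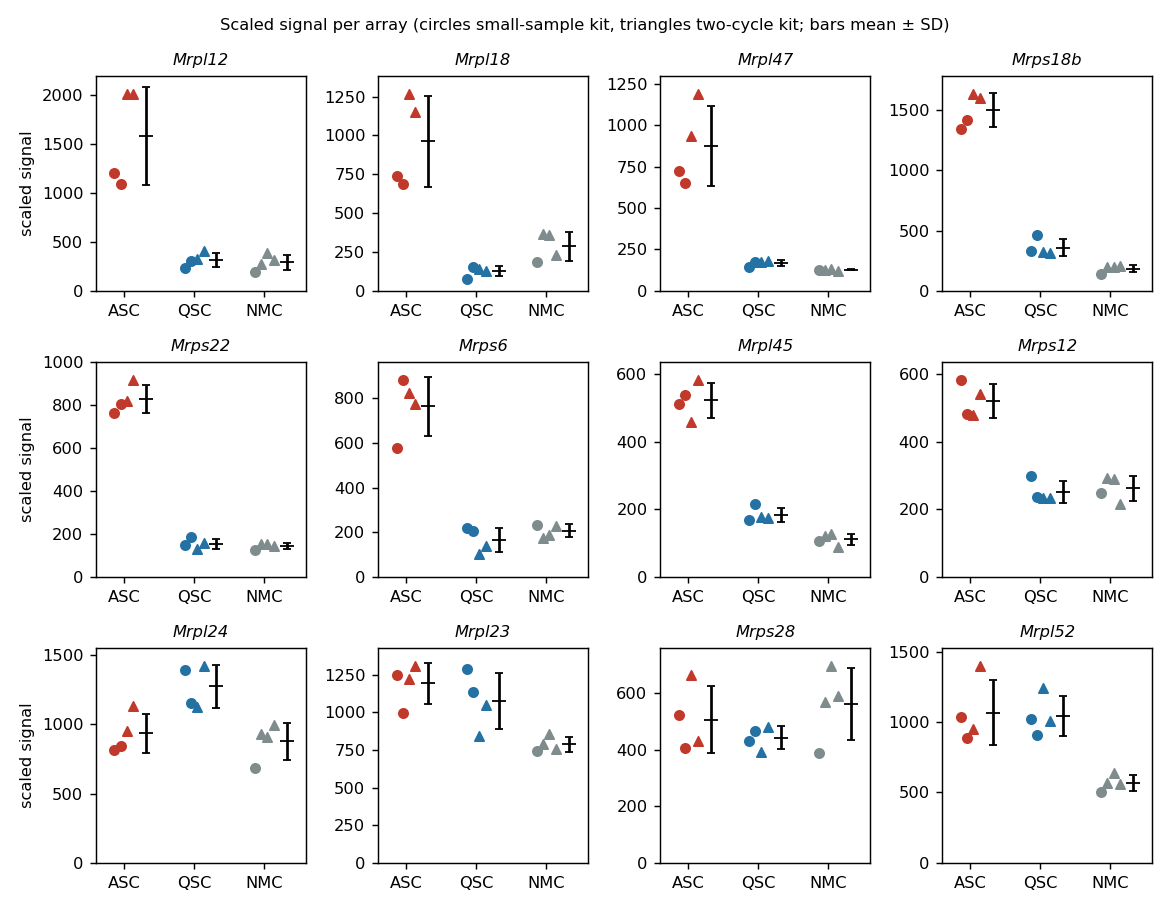
Scaled signal per array for the brightest tested probe set of 12 genes, on linear axes that start at 0, with circles for small-sample and triangles for two-cycle arrays and bars for mean ± SD of 4 arrays. The upper 8 genes have every ASC array above every QSC and NMC array, while Mrpl24, Mrpl23, Mrps28 and Mrpl52 have ASC arrays that overlap QSC arrays.

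The exceptions were few. Mrpl24, a tunnel-exit protein of the large subunit and the only gene with every tested probe set called lower, had 816, 840, 951 and 1129 on ASC arrays, against 1393, 1155, 1127 and 1421 on QSC arrays. A single ASC array lay just above the lowest QSC array, and the log2 change was -0.45 ± 0.15 (SE, limma adjusted p = 0.0148). The call for Mrpl24 was lost on the small-sample arrays alone (log2 change -0.61, limma adjusted p = 0.0585), on the two-cycle arrays alone (-0.28, adjusted p = 0.193), with unscaled signals (-0.14, adjusted p = 0.564), without the 2 small-sample ASC arrays (-0.38, adjusted p = 0.122) and without QSC replicate 1 (-0.35, adjusted p = 0.0507).

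In 4 genes, no tested probe set was called either way. Mrpl23, also at the tunnel exit, had 1247, 997, 1221 and 1310 on ASC arrays, against 1287, 1136, 843 and 1047 on QSC arrays, a log2 change of 0.15 ± 0.15 (SE). Mrpl52 had log2 changes of 0.02, 0.14 and 0.34 at its 3 tested probe sets, Mrpl33 had -0.07 ± 0.16 (SE) and Mrps28 had 0.17 ± 0.18 (SE). The ASC and QSC arrays of these genes overlapped. These 4 genes were chosen after their values had been seen, as the only ones without a call.

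Where several probe sets read the same gene, they did not always agree. Of 24 genes with more than 1 tested probe set, 15 had all of them higher in ASC. The widest difference between probe sets of 1 gene was 2.01 on the log2 scale, for Mrpl51, and 9 genes had a difference over 1. In Mrps9, 1418034_at had 209, 234, 235 and 276 on ASC arrays, against 84.8, 128, 189 and 138 on QSC arrays, and a log2 change of 0.80 ± 0.17 (SE). Another probe set of Mrps9, 1439210_at, ran the other way, with 40.9, 38.9, 20.1 and 40.1 on ASC arrays, against 88.3, 155, 65.5 and 81.5 on QSC arrays, and a log2 change of -1.14 ± 0.20 (SE). It was also among the dim ones, with signals near the minimum for testing. Mrpl48, of the central protuberance, had a log2 change of -0.99 ± 0.22 (SE) at 1437997_x_at and of 0.46 ± 0.24 (SE) at 1428302_at, the second with a limma adjusted p of 0.106.

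The suffix _x_at marks probe sets with probes that can also match other sequences. Of the 11 tested member probe sets with it, 7 were called higher and 1 lower in ASC, with a median log2 change of 0.82. Over all probe sets of any suffix, 30.7% were called higher and 37.6% lower. Of the 59 with the plain suffix _at, 50 were called higher and 1 lower, with a median of 1.11, and of the 31 with _a_at, 27 were higher and 1 lower. With 1 probe set per gene, the brightest, 1 of 74 genes was called lower, against 38.2% of all genes taken that way.

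**Figure D3:**
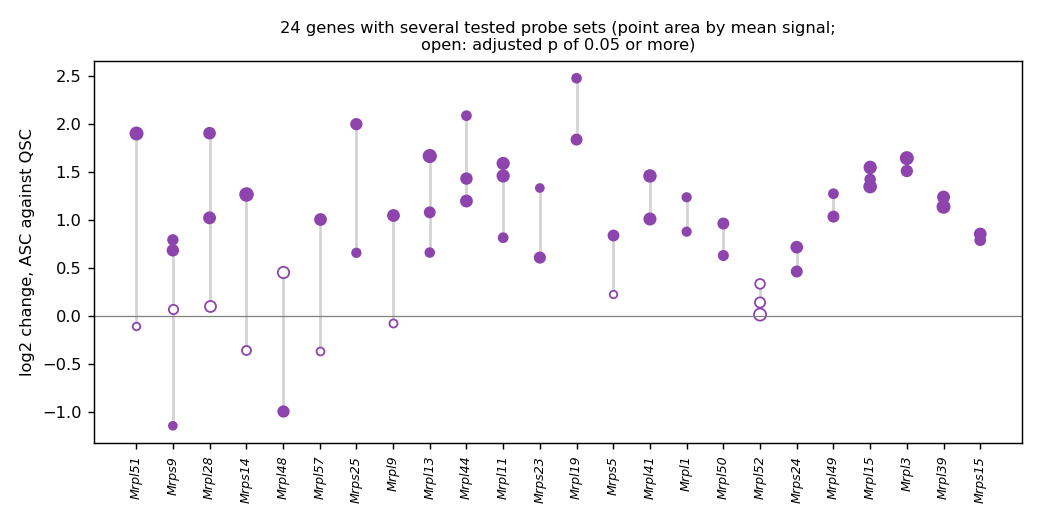
log2 change in ASC against QSC for every tested probe set of the 24 genes with several, joined by a line per gene and sorted by the difference between probe sets, with point area growing with mean signal. Filled points passed the test, and the smallest points include the probe sets of Mrpl51 and Mrps9 that stand apart from the brighter ones of the same gene.

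Both subunits and both evolutionary classes rose, where 30.7% of all probe sets were called higher in ASC than in QSC and 37.6% lower. Of 41 tested probe sets for large subunit proteins with a bacterial counterpart, 36 were higher in ASC and 1 lower, with a median log2 change of 1.35. For large subunit proteins particular to mitochondria, 25 of 32 were higher and 1 lower, with a median of 1.16. Mrpl55, with a log2 change of 1.52, was counted there although its class is uncertain. For small subunit proteins with a bacterial counterpart, 17 of 22 were higher and 1 lower, with a median of 0.82. For small subunit proteins particular to mitochondria, 11 of 11 were higher, with a median of 1.11. Mrps28, whose 1 tested probe set was not called, was placed in the class with a bacterial counterpart after its values had been seen. With Mrps28 counted as particular to mitochondria, as at first, 11 of 12 were higher there, with a median of 1.08, and 17 of 21 were higher among small subunit proteins with a bacterial counterpart, with a median of 0.85. With the brightest probe set of each gene, the class medians ran between 1.02 and 1.28, and the differences between classes were not tested. Mrps36, since assigned to the 2-oxoglutarate dehydrogenase complex, was left outside the classes and had a log2 change of 0.94.

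**Figure D4:**
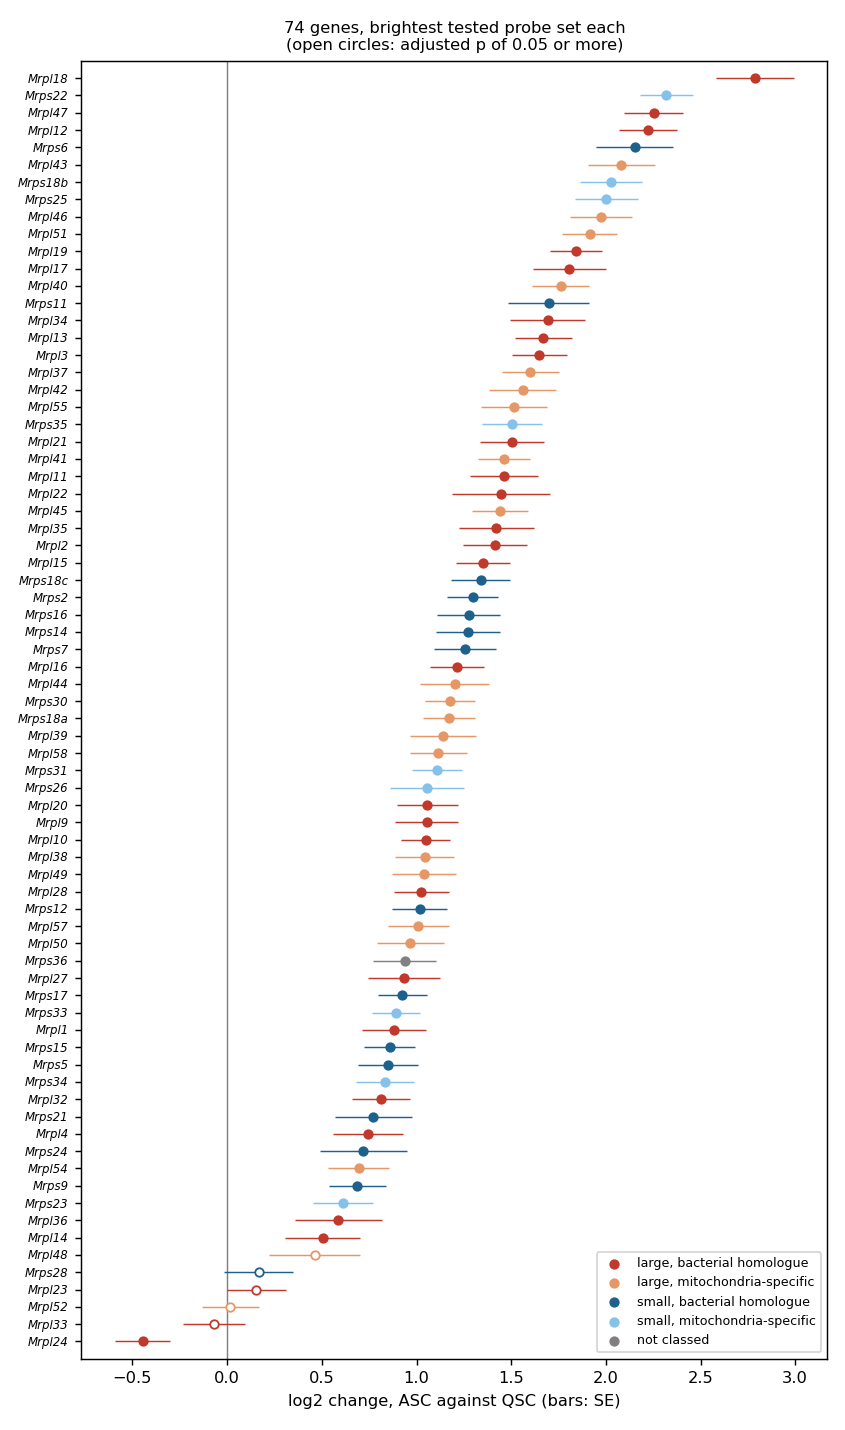
log2 change in ASC against QSC with its SE for the brightest tested probe set of each of the 74 genes, sorted, with colours for subunit and class and open circles for genes that did not pass the test. Mrpl18 stands at the top with 2.79, Mrpl24 at the bottom with -0.45, and 5 genes are open.

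The freshly sorted groups, QSC and NMC, differed little for the family as a whole. The signal was higher in QSC than in NMC for 22 member probe sets and lower for 11, of 107, against 27.4% higher and 24% lower over all probe sets. The median log2 difference was 0.07, and the median of all probe sets was 0.08. No QSC array overlapped an NMC array for 13 members higher and 5 lower in QSC, against 19.1% and 18.9% of all probe sets. The split depended on scaling: with unscaled signals 4 were higher and 30 lower, against 10.9% higher and 35.3% lower of all probe sets, with a median of -0.32 for the members and -0.29 for all probe sets. Without QSC replicate 3, 7 were lower, against 22% of all probe sets.

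Single genes nonetheless stood apart between QSC and NMC. Mrps18b had 335, 467, 321 and 318 on QSC arrays, against 141, 195, 202 and 204 on NMC arrays, with no overlap and a log2 difference of 0.93 ± 0.17 (SE, limma adjusted p = 0.000484). Mrpl52 had 1022, 906, 1243 and 1008 at 1460701_a_at on QSC arrays, against 501, 565, 636 and 559 on NMC arrays, a log2 difference of 0.92 ± 0.15 (SE), and its 3 tested probe sets were all higher. All 4 tested probe sets of Mrps9, a protein of the small subunit head, were higher in QSC by log2 differences between 0.69 and 0.87, the one that fell in ASC included. Mrpl48 was higher by 1.02 ± 0.22 (SE) at 1437997_x_at. The 2 probe sets of Mrps5, a protein by the messenger entry channel, were higher by 0.63 and 0.80, and 1 of them was tested only through its ASC signal. At 1453954_a_at, the one with 0.80, the call was lost with unscaled signals (0.47, limma adjusted p = 0.135). It was also lost without QSC replicate 4 (0.76, adjusted p = 0.0533) and without NMC replicate 2 (0.67, adjusted p = 0.055). On the small-sample arrays alone, with 1 NMC array, its difference was 0.41.

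In the other direction, Mrpl18 had 79.6, 153, 140 and 129 on QSC arrays, against 185, 368, 361 and 228 on NMC arrays, a log2 difference of -0.94 ± 0.21 (SE). Mrpl34 had 122, 77.6, 62.7 and 69.8 on QSC arrays, against 166, 136, 184 and 152 on NMC arrays, a log2 difference of -0.87 ± 0.20 (SE). Mrpl43 had 142, 81.8, 109 and 168 on QSC arrays, against 219, 249, 253 and 247 on NMC arrays, a log2 difference of -0.82 ± 0.18 (SE). For these 3 genes no QSC array reached an NMC array. Mrps21 and Mrpl27 were lower in QSC by log2 differences of -0.73 ± 0.21 and -0.65 ± 0.19 (SE). The call for Mrps21 was lost on the two-cycle arrays alone (-0.46, limma adjusted p = 0.104) and without NMC replicate 1 (-0.54, adjusted p = 0.0704). The call for Mrpl27 was lost without QSC replicate 3 (-0.44, limma adjusted p = 0.0578). On the small-sample arrays alone, which hold 1 NMC array, 2 members were called higher in QSC, against 6.88% of all probe sets, with a median of 0.09, and without the kit term 14 were, against 21.8%.

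Of the members named for their place, most lay close together on QSC and NMC arrays. Mrpl12 had 234, 308, 327 and 408 on QSC arrays, against 195, 279, 382 and 317 on NMC arrays, a log2 difference of 0.29 ± 0.16 (SE, limma adjusted p = 0.144). Mrps22 had 147, 184, 130 and 160 on QSC arrays, against 127, 154, 152 and 142 on NMC arrays, and the groups overlapped. Mrpl45 was an exception, with 169, 214, 177 and 173 on QSC arrays, against 107, 121, 127 and 88.4 on NMC arrays, and a log2 difference of 0.65 ± 0.15 (SE, limma adjusted p = 0.00278). The call for Mrpl45 was lost with unscaled signals (0.28, limma adjusted p = 0.234). On the small-sample arrays alone, with 1 NMC array, its difference was 0.75. Mrpl11, Mrpl3, Mrpl41, Mrps6, Mrps12, Mrps18a, Mrps18c and Mrps30 had no call between QSC and NMC, apart from 1 of the 3 probe sets of Mrpl11 that was higher in QSC (0.53 ± 0.20, SE). With unscaled signals, Mrpl41, Mrps18a, Mrps18c and Mrps6 were called lower in QSC (-0.59, -0.61, -0.58 and -0.78), where the median of all probe sets was -0.29. With median centring, Mrps30 was called higher in QSC (0.37). Mrps16 had 262, 197, 196 and 226 on QSC arrays, against 262, 291, 385 and 322 on NMC arrays, a log2 difference of -0.44 ± 0.17 (SE, limma adjusted p = 0.0441) that lost its call in many alternatives. Of Mrpl44, 1 of the 3 probe sets was lower in QSC, by -0.54 ± 0.22 (SE, limma adjusted p = 0.0488).

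Set against NMC, ASC showed the same picture as against QSC, through the same 4 ASC arrays. Of 107 members, 94 were higher in ASC than in NMC and 0 lower by limma, also at an unadjusted p under 0.05, against 34.1% higher and 35.9% lower of all probe sets. The groups did not overlap for 87 members, all higher in ASC, against 28.9% of all probe sets higher and 29.5% lower. The median log2 difference was 1.17, with -0.04 for all probe sets. Mrps18b had 1344, 1420, 1636 and 1600 on ASC arrays, against 141, 195, 202 and 204 on NMC arrays, a log2 difference of 2.96 ± 0.17 (SE, limma adjusted p = 3.09e-09). Mrpl47, Mrpl12, Mrps22 and Mrpl19 followed with 2.67, 2.51, 2.42 and 2.30, the value for Mrpl19 coming from the probe set that was tested only through its ASC signal (2.15 at its brighter one). For Mrps21 the ASC and NMC arrays overlapped and the difference was 0.04 ± 0.21 (SE), with 446, 372, 362 and 393 on ASC arrays, against 494, 359, 420 and 262 on NMC arrays.

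In all, 85 member probe sets were higher in ASC than in both QSC and NMC, and for 79 every ASC array was above all 8 others. For 67 of the 85, QSC and NMC were not called different. Over all probe sets, 30.7% were higher in ASC than in QSC and 34.1% higher than in NMC. All ASC arrays lay above all QSC arrays for 23.7% of all probe sets, and above all NMC arrays for 28.9%. The shares of all probe sets that met both conditions at once were not counted, with or without a call between QSC and NMC. The counts of 85, 79 and 67 thus have no matching share beside them. Of the 4 genes not called in activation, Mrpl23, Mrpl33 and Mrpl52 were higher in QSC than in NMC, by 0.42 ± 0.16, 0.52 ± 0.17 and 0.92 ± 0.15 on the log2 scale (SE), and in ASC than in NMC by 0.58 ± 0.16, 0.45 ± 0.17 and 0.94 ± 0.15. Mrpl24, lower in ASC than in QSC, was higher in QSC than in NMC by 0.59 ± 0.15 (SE) and did not pass the test between ASC and NMC (0.15 ± 0.15). These comparisons share arrays, so the values are not independent.

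The 20 untested probe sets belonged to 18 genes and had mean signals of 2.69 to 44.0, where the tested ones had 50.8 to 1463. Of them 2 had all ASC arrays above all QSC arrays, 3 had all below, and 15 overlapped.

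Proteins of the cytosolic ribosome, the other translation machine of the cell, gave another picture. Of 80 tested probe sets for cytosolic ribosomal proteins, 4 (5%) were higher in ASC than in QSC and 48 (60%) lower. The shares of all probe sets were 30.7% and 37.6%. The median log2 change of the cytosolic list was -0.42. The median was -0.57 on small-sample and -0.31 on two-cycle arrays. With unscaled signals it was -0.11, and 6 were higher and 14 lower, against 37.7% and 26.2% of all probe sets. With quantile normalization it was -0.21, and 6 were higher and 27 lower, against 34.1% and 31.4% of all probe sets. The size of the fall thus depended on the scaling. Rpl22, which also binds viral RNAs, fell by 1.95 ± 0.18 (SE) on the log2 scale, and Rpl12, of the stalk base, fell by 1.42 ± 0.18 (SE), while Rpl14 rose by 0.92 ± 0.15 (SE) and the other rises were of Rpl13a (2 probe sets) and Rpl27. Against NMC, 77 of the 80 were higher in QSC, against 27.4% of all probe sets, with a median log2 difference of 1.10. In ASC, 62 of the 80 were higher and 2 lower than in NMC, against 34.1% and 35.9% of all probe sets, with a median of 0.71. The mitochondrial members were mostly higher in ASC than in either fresh group, and the cytosolic list was mostly higher in both satellite cell groups than in NMC.

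Nuclear-encoded subunits of oxidative phosphorylation, the complexes that this ribosome serves, were also mostly higher in ASC. Of 134 tested probe sets, 96 (71.6%) were higher in ASC than in QSC and 11 (8.21%) lower, against 30.7% and 37.6% of all probe sets. The median log2 change was 0.78. The median was 0.63 on small-sample and 0.85 on two-cycle arrays. Ndufa5 of complex I rose by 1.90 ± 0.16, Uqcr10 of complex III by 1.38 ± 0.13 and Atp5pb and Atp5mpl of the ATP synthase by 2.20 ± 0.21 and 1.66 ± 0.17 (SE, log2). The probe sets that fell included Cox5b at 1436149_at, by 1.44 ± 0.22 (SE), and Cox7c at 1459885_s_at, by 1.26 ± 0.16 (SE). The others were for Cox7a2l (2 probe sets), Ndufs8, Ndufv3, Cox8c, Ndufb11, Ndufs4, Atp5c1 and Cox4i1, which fell by between 0.33 and 1.03, although other probe sets of Ndufs8 rose. Between QSC and NMC, 29 (21.6%) were higher and 15 (11.2%) lower, against 27.4% and 24% of all probe sets, with a median of 0.07. With unscaled signals 4 were higher and 45 lower, against 10.9% and 35.3% of all probe sets. The median there was -0.32, against -0.29 for all probe sets. Between ASC and NMC 106 were higher and 4 lower, against 34.1% and 35.9% of all probe sets, with a median of 0.77.

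**Figure D5:**
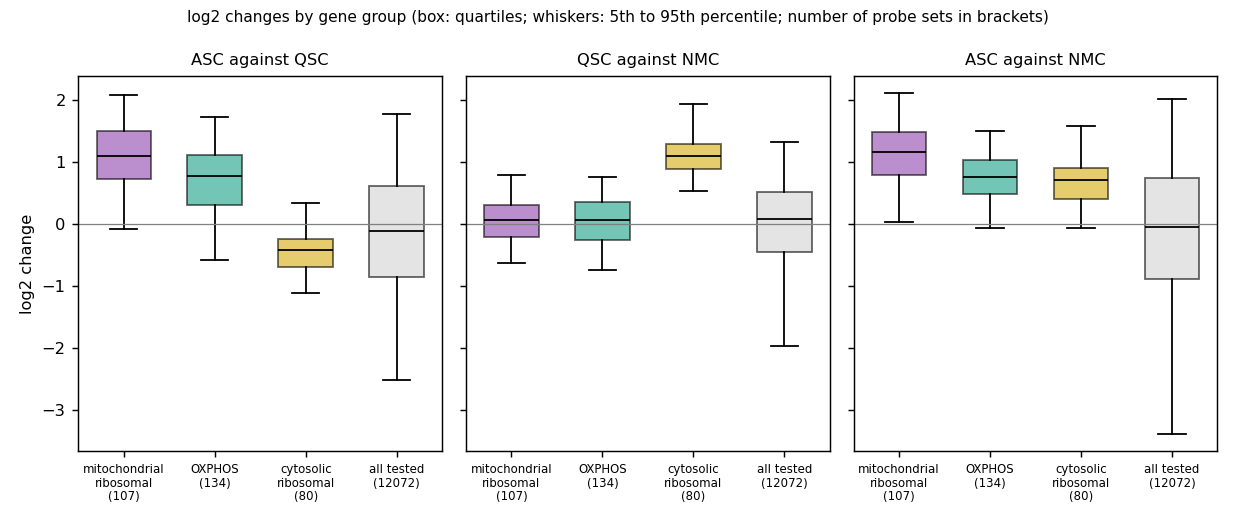
log2 changes of 107 probe sets for mitochondrial ribosomal proteins, 134 for oxidative phosphorylation subunits, 80 for cytosolic ribosomal proteins and all 12072 tested, in the 3 comparisons, as boxes of quartiles with whiskers at the 5th and 95th percentile. In ASC against QSC the medians are 1.11, 0.78, -0.42 and -0.12, and in QSC against NMC the cytosolic ribosomal proteins stand apart with 1.10.

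Mitochondrial ribosomal proteins whose symbols do not begin with Mrp rose too. Gadd45gip1, Ptcd3, Chchd1 and Dap3 had 1 tested probe set each, and all were higher in ASC than in QSC. Gadd45gip1, a large subunit protein, had 437, 411, 656 and 699 on ASC arrays, against 132, 115, 91.0 and 148 on QSC arrays, a log2 change of 2.03 ± 0.19 (SE). Ptcd3, a pentatricopeptide protein of the small subunit, rose by 1.52 ± 0.13, Chchd1 by 1.17 ± 0.15 and Dap3, a GTP-binding small subunit protein, by 1.02 ± 0.14 (SE, log2).

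Tufm, Gfm1 and other factors that work on this ribosome were higher in ASC than in QSC. Of 11 tested probe sets for translation factors and messenger-binding proteins, 9 were higher in ASC than in QSC and 2 did not pass the test, with a median log2 change of 0.58, against 30.7% of all probe sets called higher. Tufm, the elongation factor Tu of mitochondria, had 762, 585, 781 and 1171 on ASC arrays, against 139, 81.9, 120 and 96.5 on QSC arrays, a log2 change of 2.74 ± 0.25 (SE). Gfm1, the elongation factor G, rose by 1.84 ± 0.14 at 1416570_s_at, and Slirp and Lrpprc, partners that stabilise mitochondrial messengers, rose by 1.44 ± 0.13 and 1.17 ± 0.14 (SE, log2). Of 11 probe sets for mitochondrial aminoacyl-tRNA enzymes, 5 (45.5%) were higher, with a median of 0.39, led by Tars2 with 0.68 ± 0.14 (SE).

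Of 29 probe sets for assembly and rRNA-modifying factors, 11 (37.9%) were higher in ASC than in QSC, a share near the 30.7% of all probe sets, and 2 were lower, with a median log2 change of 0.22. The differences between these lists were not tested. Fastkd2, which binds the mitochondrial 16S rRNA, rose by 1.60 ± 0.15 at 1452172_at, Eral1, a chaperone of the small subunit rRNA, by 1.08 ± 0.16 and Rpusd4 by 1.01 ± 0.15 (SE, log2). The methyltransferase Mrm1 fell by 0.50 ± 0.15 and Mettl17 by 0.36 ± 0.15 (SE, log2), the second with a limma adjusted p of 0.0435. Genes that copy and transcribe mitochondrial DNA were split between ASC and QSC. Of 21 probe sets, 12 (57.1%) were higher in ASC and 7 (33.3%) lower. Of all probe sets, 30.7% were higher and 37.6% lower. The RNA polymerase Polrmt rose by 0.92 ± 0.15 and the elongation factor Tefm by 1.50 ± 0.20, while all 3 tested probe sets of Polg, the catalytic subunit of the DNA polymerase, fell, by 0.49, 0.56 and 1.18 on the log2 scale. Polg2, its accessory subunit, fell by 1.29 ± 0.16 (SE). Both called probe sets of Hsd17b10, which also serves in mitochondrial RNase P, fell, by 0.73 and 0.47 on the log2 scale. The helicase Supv3l1 fell by 0.58 ± 0.20 at 1 probe set and rose by 1.36 ± 0.17 (SE) at the other.

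Regulators of nuclear genes for mitochondria gave no common direction in ASC against QSC. Of 14 probe sets, 4 (28.6%) were higher in ASC than in QSC and 4 lower, against 30.7% and 37.6% of all probe sets. In QSC, 10 were higher and 0 lower than in NMC, against 27.4% and 24% of all probe sets, with a median of 0.80. With unscaled signals these were 5 and 0, against 10.9% and 35.3%. In ASC, 9 were higher and 1 lower than in NMC, against 34.1% and 35.9% of all probe sets, with a median of 0.73. From QSC to ASC, Nrf1 rose by 0.89 ± 0.20 (SE), Yy1 fell by 1.80 ± 0.18 and 1.12 ± 0.19 at its 2 called probe sets, and Myc fell by 1.56 ± 0.37 (SE, log2). Gabpa, the ETS subunit of the GA-binding protein, had probe sets called in opposite directions (0.92 ± 0.15 and -0.73 ± 0.18, SE). The members with the ETS core in their window had a median log2 change of 1.22 (24 genes), against 1.18 for the 41 without it. With the NRF1 letters the median was 1.14 (7 genes), against 1.19 for 58 without, and with the YY1 letters 1.17 (11 genes), against 1.19 for 54 without. With the E-box it was 1.34 (5 genes), against 1.17 for 60 without. The presence of these letters and the size of the change were not tested against each other.

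Many members share their start region with another gene. Of the 65 genes with a window, 22 (33.8%) had a coding gene that starts within 1000 bases on the other strand and runs away from it, against 8.48% of 17492 coding genes. Mrpl46 and Mrps11 start 42 bases apart, and both rose in ASC, by 1.97 ± 0.16 and 1.70 ± 0.21 (SE, log2). Of 12 partners with a tested probe set, these 2 included, 7 were higher in ASC than in QSC and 2 lower, against 31.6% and 38% of 7961 genes with 1 probe set each. Mrpl18 starts 238 bases from Tcp1, a subunit of the cytosolic chaperonin, which rose by 0.82 ± 0.16 (SE). Mrpl47 starts 308 bases from Ndufb5, a subunit of complex I, which rose by 0.61 ± 0.22 (SE). Mrpl2 starts 141 bases from Klc4, a kinesin light chain, which fell by 1.19 ± 0.16 (SE), where Mrpl2 rose with a log2 change of 1.41. The members lay on 17 chromosomes, with at most 11 on any one.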

How the data were processed

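RNA of the 12 samples was isolated with Qiagen RNeasy Mini, amplified, labelled with biotin and hybridised to 1 array each, per the labels' protocols. The authors deposited linear intensity values per probe set, made with MAS5 per the submitters' processing notes, whose version is not given in the sources used here. Each array was scaled to a trimmed mean (2% at each tail) of 235.14, and log2(signal + 14.696) was taken, the pseudocount being 1/16 of that mean, so that fold changes of dim probe sets are understated. The 12072 probe sets with 1 gene and a mean signal of at least 47.028 were tested with limma 3.58.1 in R 4.3.3 (lmFit, eBayes) on 12 arrays, with terms for group and labelling kit (Benjamini-Hochberg, 0.05). Probe set names come from the platform annotation, and all 127 members matched RefSeq by Entrez ID. The number of arrays limits the precision.

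The members and lists were chosen with earlier results of these data known. Named are, per comparison, the 5 called genes with the largest change in the main direction and up to 5 against it, 14 fixed genes, and genes with probe sets called in opposite directions; for other lists, up to 4 genes with the lowest adjusted p, and, for ASC against QSC, every gene called against the list's direction. In the comparisons with NMC only some of those are named, a departure from the rule made after the values were seen. Tested on simulated data for ASC against QSC (12072 probe sets, 200 changed), 80% of 2-fold and 98% of 4-fold changes were called, with 10 unchanged ones. Far more probe sets were called in the real comparison than were changed in the simulation. The adjusted p depends on that share, so these rates hold for the simulated setting only.

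Deviations from the group mean correlated at 0.172 to 0.313 between same-numbered ASC and QSC arrays. Numbers 1 and 2 share a kit, and within kits the differences correlated at 0.02 and -0.15. The main fit took no pairs, and a block for the replicate numbers was used only as an alternative. For the deviations of QSC and NMC the range was -0.387 to 0.365, and for ASC and NMC -0.178 to 0.401. Alternatives were other scalings, pseudocounts, filters and variance models, each kit alone, no kit term, a replicate block, 1 probe set per gene, array weights, only the arrays compared, and each array left out. Figures were drawn with Python 3.11.15 and matplotlib 3.10.9.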

Additional observations from a re-analysis of the deposited data

Results flagged for a closer look

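Single arrays stood apart from the other 3 of their group for 10 of 87 combinations of 28 named probe sets, or the member median, with a group (Dixon's test, where chance gives about 1 in 20). NMC replicate 1, the small-sample array of that group, was the highest for Mrpl19 at 1450405_at (scaled signal 50.5) and the lowest for Mrps18a (235), Mrps18b (141) and Mrpl43 (219). QSC replicate 1 was the lowest for Mrpl47 (143) and the highest for Mrps12 (299), and QSC replicate 2 was the highest for Mrps18b (467). Among ASC arrays, replicate 3 was the lowest for Mrps9 at 1439210_at (20.1), replicate 2 the lowest for Mrpl48 at 1437997_x_at (150) and replicate 4 the highest for Mrpl41 at 1428588_a_at (1173).

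Mrpl22, a large subunit protein by the exit tunnel, differed in its activation change between the labelling kits. It had 1087 and 1232 on small-sample and 1094 and 736 on two-cycle ASC arrays, against 223 and 258 on small-sample and 622 and 488 on two-cycle QSC arrays. Its log2 change was 2.20 within the small-sample and 0.69 within the two-cycle arrays, a difference of 1.51 (interaction of kit and group, limma adjusted p = 0.0261), and it was higher in ASC in both. The call of the interaction was not kept without the signal filter, with array weights or in the fit of ASC and QSC arrays alone, nor without ASC replicate 1, 2 or 4 or QSC replicate 3.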

How the results depend on the processing

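No call reversed in any alternative. In ASC against QSC the higher calls stayed within 1.5 times of 90 throughout; the lower calls were 5 with no signal filter and 1 with 1 probe set per gene, and the median was 1.41 unscaled and 0.95 with a pseudocount of 1/4 of the trimmed mean. In QSC against NMC the higher calls were 14 with no kit term, 2 on small-sample arrays alone (0 lower), 4 unscaled (30 lower, median -0.32) and 11 with 1 probe set per gene (median -0.069). In ASC against NMC the lower calls were 1 on two-cycle arrays alone, with array weights and without the 2 small-sample ASC arrays, and the median was 1.32 with median centring, 1.02 with the pseudocount of 1/4 and 1.04 with no filter. The interaction with the kit was called for 2 members unscaled and 0 with no filter, with array weights or with only the arrays compared. Fewer probe sets (1 per gene) or arrays (1 kit) enter some of these; otherwise the cause was not tested. Unscaled signals moved the median of all probe sets to 0.17 in ASC against QSC and to -0.29 in QSC against NMC, and median centring and quantile normalization moved it to 0.10 and 0.12 in ASC against NMC.

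Leaving out each array in turn gave 88 to 90 higher, 2 to 4 lower and medians of 1.09 to 1.13 in ASC against QSC, 15 to 22, 7 to 13 and 0.04 to 0.10 in QSC against NMC, 90 to 95, 0 lower each time and medians of 1.16 to 1.20 in ASC against NMC, and 0 to 3 interaction calls. With the replicate block in place of the kit, 89 members were higher and 3 lower in ASC against QSC (median 1.11), and no count moved by over 1.5 times. Of 1695 alternative values for single named probe sets, 1644 kept direction and side of the threshold, 39 lost and 12 gained a call, among them Mrpl24 in ASC against QSC, and Mrps16 and Mrps6 in QSC against NMC.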
